A study of Mus musculus with 24 samples.

Results

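A set of 9 genes that encode Wnt ligands was followed in mouse embryonic stem cells that differentiated towards endoderm with or without the gene Setd3. They were chosen by name: Wnt3, Wnt3a and Wnt8a, which are known as canonical ligands, Wnt5a, Wnt5b and Wnt11, which are known as non-canonical ligands, and Wnt4, Wnt6 and Wnt7b. They make up 9 of the 19 Wnt ligand genes among the 55401 entries of the count table, and all 9 passed the filter on low counts. The cells were of the CJ9 mouse embryonic stem cell line and were either wild-type or carried a CRISPR knock-out of Setd3, which encodes a methyltransferase of actin. The study asked whether the effect of Setd3 on this differentiation runs through canonical Wnt signalling. Both genotypes were sampled on days 0, 2, 3 and 4 in 3 libraries each, which gives 8 groups and 24 libraries of polyadenylated RNA. All groups shared 1 culture scheme. The cells grew with LIF on a layer of inactivated embryonic fibroblasts, were separated from this feeder layer, spent 2 days in serum-free differentiation medium, and were then passaged as single cells into the same medium with Activin A, which signals through the receptors that Nodal uses. The labels do not say whether the day 2 cells were taken before Activin A was added.

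Wnt proteins are secreted, lipid-modified signals. In the canonical branch they bind a Frizzled receptor together with Lrp5 or Lrp6, which stops the destruction of β-catenin, and β-catenin then acts with TCF/LEF factors on genes such as Axin2. In the non-canonical branches they act through Frizzled proteins, Ror1, Ror2 or Ryk on cell polarity and movement. In the early mouse embryo Wnt3 is known as the ligand without which no primitive streak forms, the structure from which mesoderm and definitive endoderm arise.

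The counts of a library added up to 18531390 to 24244958. Levels are given as CPM, counts relative to library size after TMM scaling, and CPM per kilobase of exon was used wherever genes were compared with each other. After a log2 fold change, ± gives its size divided by the square root of the F statistic, which is not a fitted standard error; after a CPM it gives the SD of n = 3 libraries. Within groups, log2 levels of replicate libraries correlated at r between 0.982 and 0.993 across genes. The labels do not say that replicates were separate cultures and the knock-out is 1 line, so p-values measure only the spread between these libraries, which may be technical. Setd3 itself was lower in the knock-out on every day, by 1.40, 1.66, 1.93 and 2.05 on the log2 scale, and its transcripts were still counted there, at 29.9 to 46.3 CPM. Summed pluripotency markers at day 0 stood at 2852 to 3024 CPM in wild-type libraries and at 2842 to 3078 in the knock-out. Of 1189 protein-coding genes that lie within the span of another gene, 1183 (99.5%) were listed at 0 in every library, against 2329 of 20708 (11.2%) of the others; Sox2, Sox1, Tubb3 and Foxf1 were among them and count as not measured. All 9 ligands had counts: other genes covered none of the exon length of 6 of them, and 95.1% of that of Wnt5a, 91.2% of that of Wnt11 and 77.2% of that of Wnt7b lay under no other gene.

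The stretches just upstream of 3 of the ligands that differed between genotypes are shown here, because Wnt3, Wnt5b and Wnt11 had their highest wild-type levels on the same day, day 3, and because each region bears on whether a TCF/LEF motif lies near the start. RefSeq promoter windows (GRCm38.p6, 250 bases before and 50 after a start) were matched for 6 of the 9 ligands, with 9 windows in all, 3 of them for Wnt5b and 2 for Wnt11. For Wnt5b and Wnt11 the window that holds the motif is shown, and for Wnt3 its only window, which does not hold it. Only the 250 bases before the start are printed, 5′ to 3′ on the strand of the gene, with the motif in capitals. Wnt3 at chr11:103773925-103774174 lies on the plus strand, Wnt5b at chr6:119449387-119449636 on the minus strand, before a start inside the gene, and Wnt11 at chr7:98834862-98835111 on the plus strand.
Wnt3: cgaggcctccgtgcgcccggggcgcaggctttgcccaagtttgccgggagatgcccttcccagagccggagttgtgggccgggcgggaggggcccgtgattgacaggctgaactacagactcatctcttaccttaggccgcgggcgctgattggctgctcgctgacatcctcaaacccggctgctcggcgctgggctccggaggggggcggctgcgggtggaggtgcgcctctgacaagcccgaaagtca
Wnt5b: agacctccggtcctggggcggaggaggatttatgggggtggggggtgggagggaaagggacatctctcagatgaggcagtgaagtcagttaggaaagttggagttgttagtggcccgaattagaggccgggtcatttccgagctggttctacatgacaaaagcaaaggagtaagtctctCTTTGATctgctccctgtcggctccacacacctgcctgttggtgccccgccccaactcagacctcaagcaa
Wnt11: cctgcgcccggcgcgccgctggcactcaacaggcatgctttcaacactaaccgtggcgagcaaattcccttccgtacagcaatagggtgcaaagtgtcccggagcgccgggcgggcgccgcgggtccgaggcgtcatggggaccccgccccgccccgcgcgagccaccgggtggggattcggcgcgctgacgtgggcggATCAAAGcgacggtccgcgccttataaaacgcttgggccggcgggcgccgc
The TCF/LEF motif CTTTGAT was searched on both strands. The Wnt5b window holds it in the direction of the gene, with its first base 71 bases before the start. The Wnt11 window holds it on the reverse strand, printed as ATCAAAG, 51 bases before the start. The letters do not occur in the Wnt3 window, in the other windows of Wnt5b and Wnt11 or in those of Wnt3a, Wnt4 and Wnt6, and 3.73% of the 32851 windows of all genes hold them. The motifs AGGTGTGA (T-box), AATCCACA (FOXH1) and GTCTAGAC (SMAD), held by 1.28%, 0.855% and 0.213% of all windows, occurred in none of the 9 windows of these 6 ligands, and no matches overlapped. The windows also differ in CpG pairs: the printed ones have 24 for Wnt3, 7 for Wnt5b and 45 for Wnt11, the other windows of Wnt5b have 4 and 47 and that of Wnt11 has 23, against a median of 7 over all windows. These are matches of letters in a fixed window and no measurement of binding.

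In the knock-out, the canonical ligands Wnt3 and Wnt8a stood under 1 CPM at days 0 and 2, and at day 3 the levels of Wnt3, Wnt3a, Wnt8a, Wnt5b and Wnt11 were all lower than in the wild-type. By the quasi-likelihood test of edgeR, with p-values adjusted by Benjamini-Hochberg over 17144 genes, 5 of the 9 ligands were lower in the knock-out at day 0, where 10.5% of all genes were lower, and 4 were lower at day 2, where 15.7% were. At day 3, 5 were lower beside 20.5% of all genes. At day 4, 3 of 9 were lower, which is a share near the 27.6% of all genes. No ligand was called higher in the knock-out on any day with all libraries, where 10.6%, 16.2%, 20.8% and 26.3% of all genes were: edgeR called 0, 0 had an unadjusted p under 0.05, and DESeq2's Wald test also called 0. Without wild-type day 4 replicate 3, Wnt4 and Wnt7b were called higher at day 4 (adjusted p = 0.0113 and 0.0358). The median log2 fold change over the 9 ligands was -0.98, -1.05, -1.73 and -1.12 at days 0, 2, 3 and 4, and that of all tested genes lay between -0.0125 and 0.00587. The day 4 median of the ligands includes Wnt3a, Wnt6 and Wnt7b, which were near the detection limit. Their groups held 7, 4 and 3 counts in the wild-type and 3, 1 and 9 in the knock-out. In bulk RNA, fewer cells of a type and less RNA per cell cannot be told apart.

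**Figure D1:**
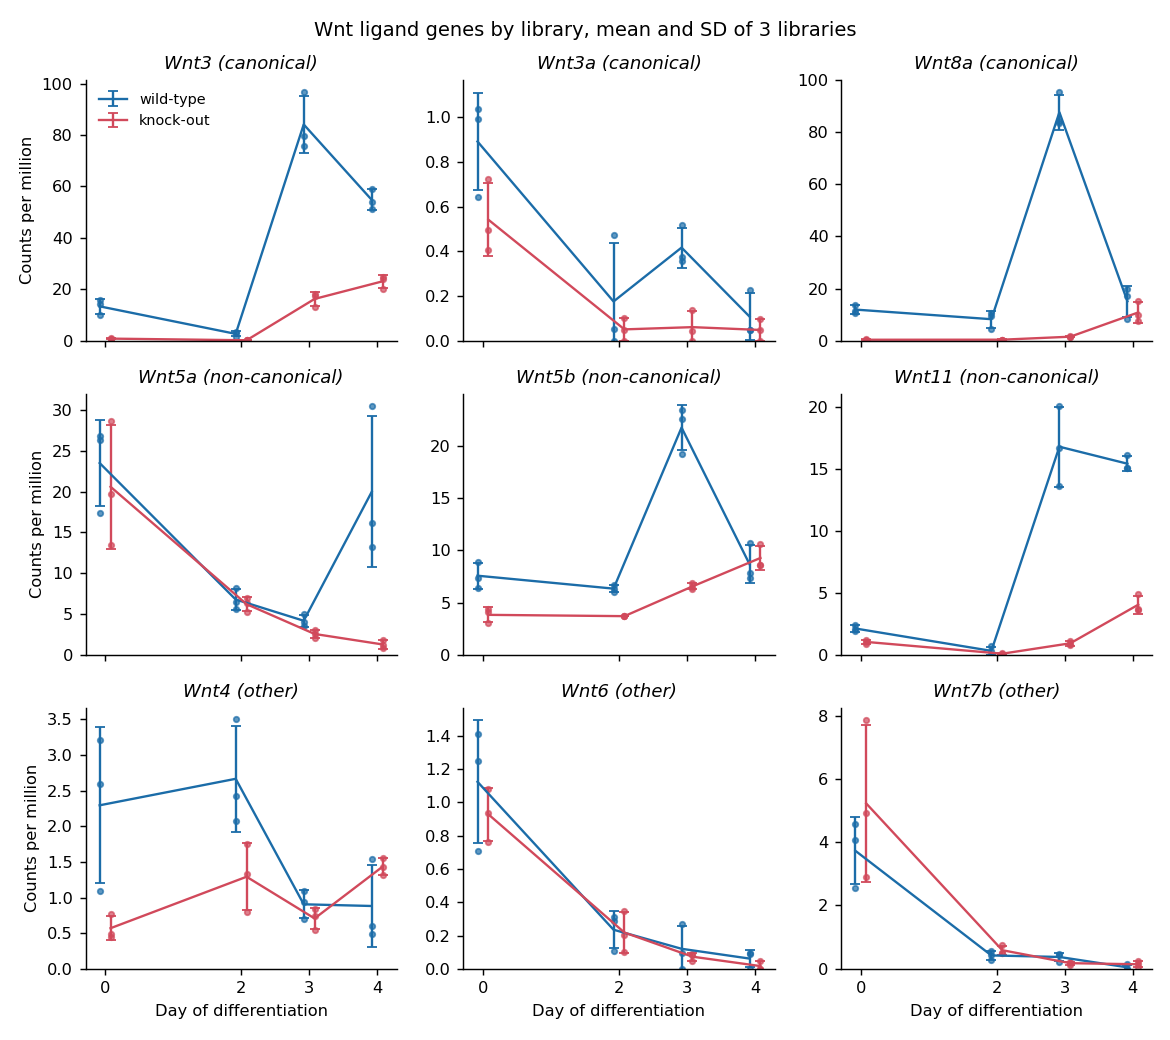
Level of each of the 9 Wnt ligand genes (CPM, vertical axis) by day of differentiation (horizontal axis), 1 panel per gene; points are libraries, lines and bars the mean ± SD of 3 libraries, blue wild-type and red knock-out. Wnt3, Wnt8a, Wnt5b and Wnt11 reach their highest wild-type means at day 3, where the knock-out libraries lie below all wild-type libraries.

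Wnt3 was lower in the knock-out on every day. Its wild-type libraries measured 10.1, 14.3 and 15.7 CPM at day 0, 3.36, 3.06 and 1.55 at day 2, 96.7, 79.8 and 75.9 at day 3, and 59.2, 51.1 and 54.0 at day 4. The knock-out libraries measured 0.763, 0.722 and 0.938 CPM at day 0, 0.201, 0.153 and 0.150 at day 2, 17.6, 13.0 and 18.2 at day 3, and 24.2, 20.3 and 24.9 at day 4. All knock-out libraries lay below all wild-type libraries on each of the 4 days. The knock-out mean was 6.05%, 6.32%, 19.3% and 42.2% of the wild-type mean at days 0, 2, 3 and 4. Of the steps between days, only that from day 3 to day 4 changed this ratio by edgeR's test with all libraries. The differences passed edgeR's test on each day, with log2 fold changes of -4.04 ± 0.25, -3.94 ± 0.45, -2.37 ± 0.16 and -1.24 ± 0.15, at adjusted p-values of 1.07e-10, 9.35e-07, 1.65e-10 and 5.26e-07. Wnt3 is ENSMUSG00000000125, at chr11:103774150-103817957 on the plus strand of GRCm38.

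Over time, Wnt3 first fell and then rose steeply in both genotypes. From day 0 to day 2 it fell by 2.33 on the log2 scale in the wild-type and by 2.22 in the knock-out. From day 2 to day 3 it rose by 4.98 ± 0.20 (adjusted p = 3.16e-14) in the wild-type and by 6.55 ± 0.33 (adjusted p = 3.28e-12) in the knock-out, where the day 2 libraries held only 4, 3 and 3 counts. The difference between these rises was 1.57 (adjusted p = 0.0751) and passed the test without wild-type day 2 replicate 3 and without knock-out day 3 replicate 2. From day 3 to day 4 it fell in the wild-type by 0.62 ± 0.15 (adjusted p = 0.00155) and rose in the knock-out by 0.51 ± 0.16 (adjusted p = 0.0432). The knock-out rise was no longer called without knock-out day 3 replicate 1, day 3 replicate 2, day 4 replicate 1 or day 4 replicate 3.

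Wnt8a, a canonical ligand made in the early streak, had the largest fold difference between genotypes among the 9 ligands at days 0, 2 and 3, and the smallest among the 3 canonical ligands at day 4. Wild-type libraries measured 10.5, 13.8 and 11.5 CPM at day 0, 10.7, 9.64 and 4.46 at day 2, 84.2, 95.4 and 83.4 at day 3, and 8.36, 17.3 and 19.7 at day 4. Knock-out libraries measured 0.611, 0.0902 and 0.395 CPM at day 0, 0.301, 0.459 and 0.399 at day 2, 1.61, 1.38 and 1.62 at day 3, and 9.89, 7.47 and 15.2 at day 4. The libraries of the genotypes did not overlap at days 0, 2 and 3, and overlapped at day 4. The knock-out mean was 3.06%, 4.68% and 1.75% of the wild-type mean at the first 3 days and 71.7% at day 4. On the log2 scale the difference was -5.05 ± 0.51, -4.40 ± 0.53 and -5.83 ± 0.38 at days 0, 2 and 3, with adjusted p-values of 1.43e-06, 6.66e-06 and 1.10e-09. It was -0.48 ± 0.30 at day 4 and was not called (adjusted p = 0.191). Without wild-type day 4 replicate 1, the lowest wild-type library of that day, the day 4 value was -0.77 and was called (adjusted p = 0.0275).

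In the wild-type Wnt8a passed through a peak at day 3, and in the knock-out its highest mean was at day 4. The wild-type rose from day 2 to day 3 by 3.40 ± 0.31 (adjusted p = 8.26e-08) and fell to day 4 by 2.53 ± 0.29 (adjusted p = 1.15e-06). The knock-out rose from day 2 to day 3 by 1.98 ± 0.69 (adjusted p = 0.038), a call that was lost when any 1 of the 6 libraries compared was left out, and rose from day 3 to day 4 by 2.81 ± 0.39 (adjusted p = 0.000134). The gene is ENSMUSG00000012282, at chr18:34542313-34548273 on the plus strand.

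Wnt3a, a canonical ligand known for its part in paraxial mesoderm and the tail bud, was close to the detection limit throughout. Its wild-type libraries measured 1.04, 0.642 and 0.992 CPM at day 0 and 0.519, 0.373 and 0.357 at day 3. Its knock-out libraries measured 0.407, 0.722 and 0.494 CPM at day 0 and 0, 0.138 and 0.0439 at day 3. The genotypes overlapped at day 0 and did not overlap at day 3. The difference was called at day 3 only (-2.71 ± 0.87, adjusted p = 0.0146), and this call was lost without wild-type day 3 replicate 1 (adjusted p = 0.0511), knock-out day 3 replicate 1 (0.0708) or knock-out day 3 replicate 3 (0.0503); without knock-out day 3 replicate 2 the value was -3.95. At days 2 and 4 the knock-out group held 3 counts, and the wild-type over knock-out ratio was 3.36 (95% interval of the counts 0.865 to 19.0) and 2.33 (0.531 to 13.9), so a difference was not detectable at this depth. It fell from day 0 to day 2 in both genotypes, by 2.34 in the wild-type, a value that was -1.74 without wild-type day 2 replicate 1 and -4.85 without replicate 2. In the knock-out the ratio of day 0 to day 2 counts was 10.9 (3.42 to 55.4). The gene is at chr11:59248033-59290752 on the minus strand.

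Wnt5a, a non-canonical ligand that acts through Ror2 and is known for guiding cell movement and axis elongation, was called between genotypes at day 4 and on no other day. Its wild-type libraries measured 17.4, 26.8 and 26.3 CPM at day 0, 5.66, 8.17 and 6.48 at day 2, 4.95, 3.57 and 3.98 at day 3, and 30.5, 16.2 and 13.2 at day 4. Its knock-out libraries measured 28.6, 19.7 and 13.4 CPM at day 0, 6.98, 6.37 and 5.24 at day 2, 3.05, 2.53 and 2.06 at day 3, and 1.82, 1.14 and 0.827 at day 4. The groups overlapped at days 0 and 2 and did not overlap at days 3 and 4. At day 4 the knock-out mean was 6.32% of the wild-type mean (-3.97 ± 0.38, adjusted p = 4.11e-08), and the value was -3.52 without wild-type day 4 replicate 1, the highest library. The log2 fold change at day 3 was -0.71 (adjusted p = 0.141), and was called in the fit of only the groups compared (adjusted p = 0.0119). At day 0 it was -0.19 ± 0.28 (adjusted p = 0.684). From day 3 to day 4 Wnt5a rose in the wild-type by 2.25 ± 0.32 (adjusted p = 1.17e-05). In the knock-out the mean went from 2.55 to 1.26 CPM in the same step, which was not called (adjusted p = 0.162) but was called lower by DESeq2's Wald test (adjusted p = 0.0258) and in the fit of only the groups compared (0.00856). The knock-out fell from day 2 to day 3 by 1.28 ± 0.36 (adjusted p = 0.0116; 0.0546 without knock-out day 3 replicate 3). The gene is ENSMUSG00000021994, at chr14:28504750-28527448 on the plus strand.

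Summed markers of some cell types ordered the libraries of a group as Wnt5a did, and those of others did not. At day 0 the summed CPM of 15 fibroblast feeder genes was 1025, 1764 and 1504 in wild-type replicates 1 to 3 and 2676, 1884 and 987 in the knock-out replicates. The highest feeder sum and the highest Wnt5a level fell on the same library in each genotype, and so did the lowest. The median log2 fold change of the feeder genes between genotypes was 0.23 at day 0. By day 4 the feeder sum was 30.7 to 32.3 CPM in the wild-type and 37.3 to 44.2 in the knock-out. At day 4 the summed mesoderm markers measured 142.6, 83.1 and 68.7 CPM in the wild-type, in the order of its Wnt5a levels, and 1.41, 1.38 and 2.33 CPM in the knock-out, where Mesp1, Msgn1 and Hand1 were at 0. Summed trophoblast markers, which share Hand1 with the mesoderm list, measured 61.9, 44.4 and 35.5 CPM in the wild-type and 3.04, 1.52 and 3.55 in the knock-out. In the day 4 knock-out neither list followed the order of Wnt5a. Extraembryonic endoderm sums in the day 4 wild-type, 424, 323 and 292 CPM, also ran in the order of Wnt5a. Neuroectoderm sums there (74.5, 122 and 148 CPM) and pluripotency sums (199, 290 and 315 CPM) ran in the reverse order. In the knock-out, replicate 1 was the highest and replicate 3 the lowest on all 4 days for both the feeder sum and Wnt5a. The part of these cell types in the Wnt5a values was not tested.

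**Figure D2:**
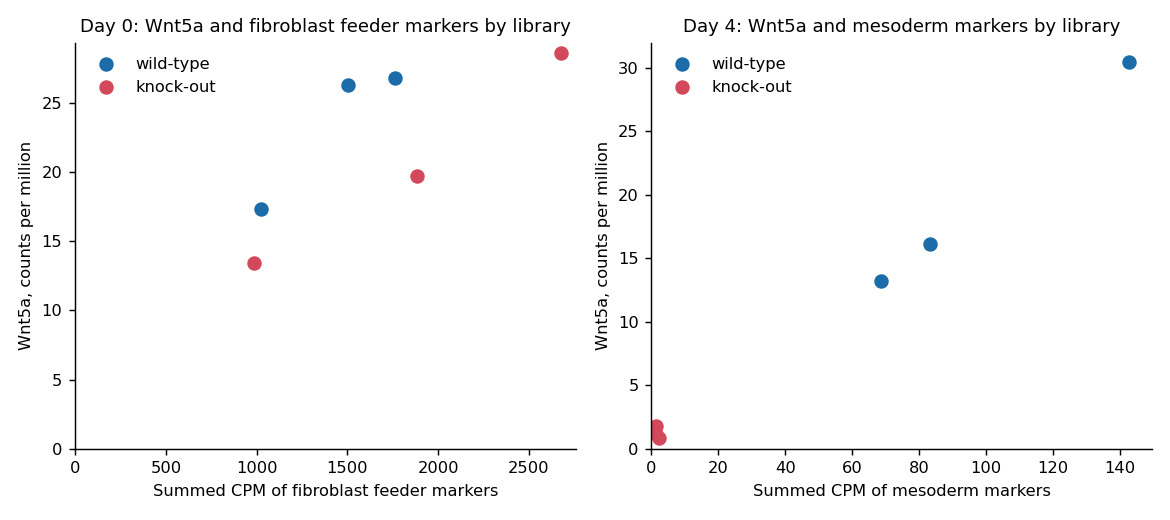
Wnt5a (CPM, vertical axis) against the summed CPM of fibroblast feeder markers at day 0 and of mesoderm markers at day 4 (horizontal axes), 1 point per library, blue wild-type and red knock-out. At day 0 the feeder sums run from 1025 to 1764 CPM in the wild-type and from 987 to 2676 CPM in the knock-out, and at day 4 the knock-out libraries lie at 0.827 to 1.82 CPM of Wnt5a and at mesoderm sums of 1.38 to 2.33 CPM.

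Wnt5b, the close relative of Wnt5a and a non-canonical ligand, was about even between genotypes at day 4 and lower in the knock-out before. Wild-type libraries measured 6.42, 8.90 and 7.37 CPM at day 0, 6.33, 6.64 and 6.01 at day 2, 22.6, 23.4 and 19.3 at day 3, and 7.38, 7.87 and 10.7 at day 4. Knock-out libraries measured 3.00, 4.11 and 4.34 CPM at day 0, 3.67, 3.72 and 3.69 at day 2, 6.86, 6.44 and 6.31 at day 3, and 8.62, 8.57 and 10.6 at day 4. The groups were apart on the first 3 days and overlapped at day 4. On the log2 scale the knock-out differed by -0.98 ± 0.16, -0.78 ± 0.17 and -1.73 ± 0.15 at days 0, 2 and 3, with adjusted p-values of 8.33e-05, 0.00088 and 1.59e-09. The day 4 value was 0.09 (adjusted p = 0.617). The wild-type rose from day 2 to day 3 by 1.78 ± 0.15 (adjusted p = 1.02e-09) and fell again by 1.32 ± 0.14 (adjusted p = 5.49e-08). The knock-out rose by 0.82 ± 0.16 (adjusted p = 0.000435) and then by 0.50 ± 0.15 (adjusted p = 0.0306), the second rise being lost without any 1 of the 3 knock-out day 3 libraries or without knock-out day 4 replicate 3. The gene is at chr6:119432531-119544347 on the minus strand.

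Wnt11, a non-canonical ligand known from convergent extension movements, had the largest fitted rise of the 9 ligands in the wild-type, from day 2 to day 3, and no called change there from day 3 to day 4. Its wild-type libraries measured 1.89, 2.40 and 2.07 CPM at day 0, 0.672, 0.263 and 0 at day 2, 20.0, 16.7 and 13.6 at day 3, and 16.1, 15.1 and 15.1 at day 4. Its knock-out libraries measured 1.22, 0.993 and 0.889 CPM at day 0, 0.0502, 0.102 and 0.0998 at day 2, 0.804, 0.828 and 1.14 at day 3, and 3.58, 3.67 and 4.86 at day 4. All knock-out libraries lay below all wild-type libraries at days 0, 3 and 4, and at day 2 wild-type replicate 3, with no count, lay below the knock-out. The log2 fold change was -4.17 ± 0.28 at day 3 and -1.93 ± 0.23 at day 4, with adjusted p-values of 2.42e-11 and 1.29e-07. The day 0 value of -1.04 ± 0.31 (adjusted p = 0.0188) lost its call without wild-type day 0 replicate 2 (0.0677), knock-out day 0 replicate 2 (0.0641) or knock-out day 0 replicate 3 (0.0549). The day 2 value of -1.86 was not called (adjusted p = 0.0593), and was called without wild-type day 2 replicate 3 (-2.42, adjusted p = 0.00251) and by DESeq2's Wald test (adjusted p = 0.0321).

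The wild-type rise of Wnt11 from day 2 to day 3 was 5.69 ± 0.33 (adjusted p = 1.85e-12), from 14, 5 and 0 counts, and was 6.94 without wild-type day 2 replicate 1. The fall before it was 2.71 ± 0.39, and the value was -3.96 without that library. In the knock-out Wnt11 rose by 3.37 ± 0.59 (adjusted p = 0.000101) from day 2 to day 3 and again by 2.12 ± 0.29 (adjusted p = 3.08e-05) to day 4, where the wild-type step was -0.12. The gene is at chr7:98835112-98855195 on the plus strand.

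Wnt4, Wnt6 and Wnt7b, ligands known mainly from epithelia, kidney and lung, had group means of 5.22 CPM or less, the highest being that of Wnt7b in the knock-out at day 0. Wnt4 measured 1.09, 3.21 and 2.59 CPM in the wild-type at day 0 and 3.50, 2.42 and 2.07 at day 2. Its knock-out libraries measured 0.763, 0.451 and 0.494 CPM at day 0 and 0.804, 1.33 and 1.75 at day 2. The groups did not overlap on these days, and the knock-out was lower, with log2 fold changes of -2.02 ± 0.41 and -1.05 ± 0.37 and adjusted p-values of 0.000901 and 0.0313. The day 2 call was lost without wild-type day 2 replicate 1 (adjusted p = 0.164), knock-out day 2 replicate 1 (0.151) or knock-out day 2 replicate 2 (0.0718). Wnt4 rose in the knock-out from day 0 to day 2 by 1.18 (adjusted p = 0.0239), a call lost without knock-out replicate 2 or 3 of either day, and fell in the wild-type from day 2 to day 3 by 1.55 ± 0.38 (adjusted p = 0.00199). At day 4 it stood at 0.492, 0.605 and 1.55 CPM in the wild-type and 1.32, 1.43 and 1.56 in the knock-out (0.69, adjusted p = 0.157), and without wild-type day 4 replicate 3, the highest of its group, the value was 1.38 (adjusted p = 0.0113).

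Wnt7b had wild-type levels of 2.55, 4.07 and 4.57 CPM and knock-out levels of 2.90, 4.92 and 7.85 CPM at day 0, which overlapped (0.48, not called). It fell from day 0 to day 2 by 3.13 ± 0.42 in the wild-type and by 3.14 in the knock-out. At day 4 the wild-type libraries measured 0, 0 and 0.136 CPM, and the ratio of knock-out to wild-type counts was 3.01 (95% interval 0.751 to 17.3). The fitted day 4 value of 1.48 (adjusted p = 0.241) became 4.64 (adjusted p = 0.0358) without wild-type day 4 replicate 3, which left the wild-type with no count. Its fall in the wild-type from day 3 to day 4 amounted to a ratio of 7.84 (2.37 to 40.8), and its knock-out step from day 2 to day 3 (-1.70 ± 0.60, adjusted p = 0.0343) lost its call in 5 of the 6 fits that left out a library. Wnt6 at day 0 measured 0.708, 1.41 and 1.25 CPM in wild-type libraries and 0.763, 1.08 and 0.938 in knock-out libraries (-0.28, not called), fell by 2.23 and 2.06 to day 2, and by day 4 held 4 counts in the wild-type group and 1 in the knock-out group.

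**Figure D3:**
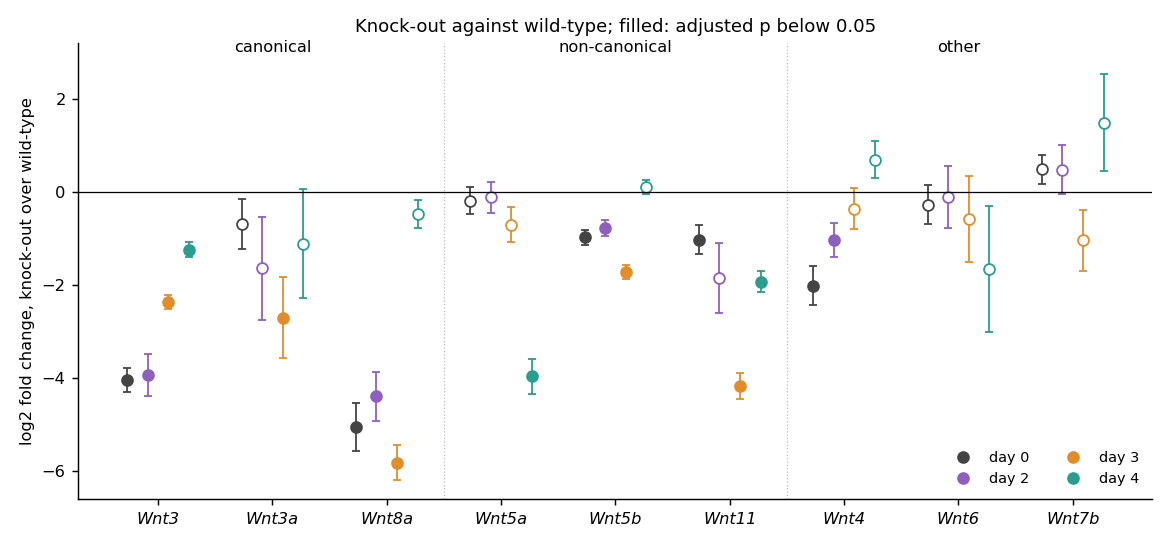
Log2 fold change of knock-out over wild-type (vertical axis) for each of the 9 ligands at days 0, 2, 3 and 4, with bars of the size divided by the square root of the F statistic; filled points have an adjusted p under 0.05. Wnt3 lies below 0 with a filled point on all 4 days, and Wnt5a at day 4 only.

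The step counts were read beside the share of all genes called. From day 0 to day 2 in the wild-type, 6 ligands fell where 31.8% of all genes fell, and from day 2 to day 3, 4 rose where 21.4% of all genes rose, and Wnt4 fell (21.1%). From day 3 to day 4 in the wild-type, 4 of 9 fell (23.1% of all genes) and Wnt5a rose (22.4%). In the knock-out, 6 fell from day 0 to day 2 (30.6%) and Wnt4 rose (29.5%). From day 2 to day 3 in the knock-out, 4 ligands rose where 14.7% of all genes rose and 2 fell where 14.4% did. From day 3 to day 4 in the knock-out the same 4 ligands, Wnt3, Wnt8a, Wnt5b and Wnt11, rose where 5.76% of all genes rose.

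Whether a step differed between genotypes was tested as an interaction. From day 0 to day 2 edgeR called 0 ligands where 7.34% of all genes differed, and 0 had an unadjusted p under 0.05 or a call by DESeq2. From day 2 to day 3 only Wnt5b was called, with a rise smaller in the knock-out by 0.96 ± 0.22 on the log2 scale (adjusted p = 0.0053). There 10.9% of all genes differed, and 1 of 9 ligands is near that share. From day 3 to day 4, 5 of 9 ligands were called where 23.8% of all genes differed. In that step the knock-out minus wild-type difference was 5.34 ± 0.48 for Wnt8a (adjusted p = 3.5e-07) and 2.24 ± 0.36 for Wnt11 (adjusted p = 5.77e-05). It was 1.83 ± 0.21 for Wnt5b (adjusted p = 6.42e-07) and 1.13 ± 0.22 for Wnt3 (adjusted p = 0.00058). It was -3.26 ± 0.55 for Wnt5a (adjusted p = 0.000215), the ligand that rose in the wild-type alone by the test. Wnt11 was called from day 2 to day 3 without wild-type day 2 replicate 1 (-3.57, adjusted p = 0.0272; -2.31, adjusted p = 0.17, with all libraries). Wnt4 and Wnt7b were called from day 3 to day 4 without wild-type day 4 replicate 3.

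Canonical and non-canonical ligands were compared as sums of CPM per kilobase of exon, each over 3 genes. In the wild-type the canonical sum was 11.5 ± 1.64, 5.65 ± 2.25, 77.7 ± 4.46 and 26.5 ± 2.43 CPM per kilobase at days 0, 2, 3 and 4. In the knock-out it was 0.668 ± 0.105, 0.294 ± 0.0557, 6.18 ± 0.968 and 13.7 ± 2.95, which is 5.80%, 5.20%, 7.96% and 51.8% of the wild-type. All knock-out libraries stayed below all wild-type libraries. The non-canonical sum was 6.37 ± 1.16, 3.32 ± 0.263, 12.8 ± 1.53 and 9.54 ± 0.953 CPM per kilobase in the wild-type and 4.32 ± 0.758, 2.20 ± 0.106, 3.01 ± 0.136 and 4.63 ± 0.564 in the knock-out, which is 67.9%, 66.3%, 23.6% and 48.5%. The canonical sum thus had the lower share of the wild-type level at days 0, 2 and 3 and not at day 4. Single ligands did not all follow their sum. At day 0 the knock-out mean was 6.05% of the wild-type mean for Wnt3, 3.06% for Wnt8a and 60.7% for Wnt3a. For Wnt5a it was 87.6%, for Wnt5b 50.5% and for Wnt11 48.8%. At day 3 Wnt11 (5.51%) lay below Wnt3 (19.3%) and Wnt3a (14.6%) and above Wnt8a (1.75%).

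The log2 ratio of the canonical to the non-canonical sum changed its sign in the knock-out. In the wild-type it was 0.86 ± 0.06, 0.67 ± 0.60, 2.61 ± 0.10 and 1.48 ± 0.25 at days 0, 2, 3 and 4, and at day 2 wild-type replicate 3 stood at -0.00765. In the knock-out it was -2.69 ± 0.33 and -2.92 ± 0.30 at days 0 and 2, then 1.03 ± 0.23 and 1.55 ± 0.17 at days 3 and 4. The genotypes differed by more than their spread at days 0, 2 and 3 and not at day 4. Without division by exon length the wild-type ratio was -0.33 at day 0 and -0.36 at day 2, so its sign there depends on the scale; the knock-out values kept their sign. These sums describe chosen genes and carry no test.

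**Figure D4:**
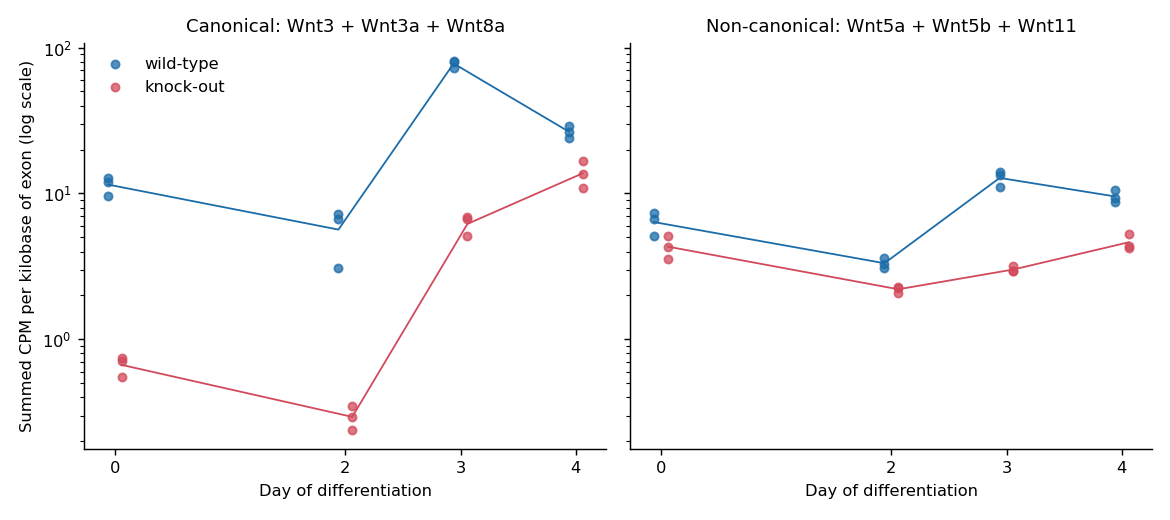
Summed level of the canonical ligands (Wnt3, Wnt3a, Wnt8a) and the non-canonical ligands (Wnt5a, Wnt5b, Wnt11) in CPM per kilobase of exon (vertical log axis) by day; points are libraries, lines the mean of 3 libraries, blue wild-type and red knock-out. The canonical knock-out sum runs far below the wild-type until day 3 and reaches 51.8% of it at day 4.

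The order of the ligands by CPM per kilobase differed between genotypes. At day 0 the wild-type was led by Wnt8a (6.84 ± 0.97) and Wnt3 (4.34 ± 0.96), which did not overlap, followed by Wnt5a (3.00) and Wnt5b (2.85), which did. The knock-out was led at day 0 by Wnt5a (2.63), then Wnt5b (1.44) and Wnt7b (1.07), the last of which overlapped. At day 2 Wnt8a (4.73 ± 1.90) and Wnt5b (2.38) led the wild-type, and Wnt5b (1.39) and Wnt5a (0.792) led the knock-out. At day 3 the wild-type ran from Wnt8a (50.2 ± 3.83) over Wnt3 (27.3 ± 3.59), Wnt5b (8.19) and Wnt11 (4.06) to Wnt5a (0.532), with no overlap among the first 4. The knock-out at day 3 was led by Wnt3 (5.28 ± 0.913), Wnt5b (2.46) and Wnt8a (0.880). At day 4 Wnt3 led in both genotypes, at 17.8 ± 1.33 in the wild-type and 7.51 ± 0.804 in the knock-out, where it overlapped with Wnt8a (6.21 ± 2.26). Of the 8 pairs of neighbours in the order, 5, 5, 2 and 4 overlapped in the wild-type at the 4 days and 5, 4, 4 and 3 in the knock-out. All 9 ligands together came to 19.7, 9.81, 90.8 and 36.3 CPM per kilobase in the wild-type and 6.61, 3.03, 9.44 and 18.7 in the knock-out. Parts of this order depend on the division by exon length. In CPM, Wnt5a had the highest mean at day 0 in both genotypes, 23.5 in the wild-type and 20.6 in the knock-out. On that scale the wild-type day 3 libraries of Wnt8a (83.4 to 95.4 CPM) and Wnt3 (75.9 to 96.7 CPM) overlapped.

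Among the other 10 Wnt ligand genes of the table, 7 were tested; Wnt1 was at 0 in every library and Wnt8b and Wnt10b did not pass the filter. Wnt2b was lower in the knock-out on all 4 days, with log2 fold changes of -1.20, -1.44, -1.82 and -2.12, from a knock-out mean of 1.14 against 2.63 CPM at day 0 and 0.970 against 4.27 CPM at day 4. At day 4 Wnt2 held 89, 36 and 32 counts in the wild-type and 0, 1 and 1 in the knock-out, a ratio of 78.3 (95% interval 21.3 to 652). With these included, 2, 1, 2 and 3 of the 7 were lower at days 0, 2, 3 and 4. The shares of all genes that were lower were 10.5%, 15.7%, 20.5% and 27.6%. The day 2 count is near that share, and the day 3 count is not far above it. The third gene counted was Wnt9b, lower at days 0, 3 and 4. Wnt9a was higher at days 2 and 3 (0.70 and 0.72), where 16.2% and 20.8% of all genes were.

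Genes that make and receive the ligands split in both directions. Of 9 genes for Wnt acylation and secretion, 2, 4, 4 and 2 were higher in the knock-out at days 0, 2, 3 and 4, and 1, 4 and 4 were lower at days 2, 3 and 4. Porcn, the acyltransferase that adds the lipid to Wnt proteins, stood at 1.75 ± 0.349 against 9.37 ± 0.0706 CPM at day 3 (-2.41 ± 0.17). Wls, the carrier that takes them to the cell surface, stood at 34.4 ± 3.08 against 130 ± 25.7 CPM at day 4 (-1.92). Of 12 Frizzled and Lrp genes, 2, 1, 4 and 5 were higher and 2, 6, 6 and 4 lower. Among these receptors Fzd5 was lower at day 4 (39.6 ± 3.79 against 495 ± 122 CPM, -3.64 ± 0.14) and Fzd10 at day 3 (9.70 ± 0.949 against 51.0 ± 7.29 CPM, -2.39 ± 0.14), while Fzd7 was higher at day 3 (335 ± 12.2 against 188 ± 10.8 CPM, 0.84 ± 0.05). Among all genes 10.6%, 16.2%, 20.8% and 26.3% were higher and 10.5%, 15.7%, 20.5% and 27.6% lower at days 0, 2, 3 and 4, so that several of these counts, such as 2 of 9 secretion genes higher at day 4 or 4 of 12 receptor genes lower at day 4, lie near the share of all genes.

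Counts for non-canonical receptors, R-spondin genes and secreted inhibitors stand beside the same shares of all genes, 10.5%, 15.7%, 20.5% and 27.6% lower and 10.6%, 16.2%, 20.8% and 26.3% higher; at day 4, 4 of 15 lower or 3 of 8 higher is near them. Of 15 non-canonical receptor and planar polarity genes, 4, 2, 7 and 4 were lower and, at days 0, 3 and 4, 1, 2 and 5 higher. Ror2, the receptor of Wnt5a, stood at 6.96 ± 1.21 against 43.4 ± 1.61 CPM at day 3 (-2.64), and the planar polarity cadherin gene Celsr1 was lower on all 4 days (-0.75, -1.34, -1.58 and -2.27). Of 8 tested R-spondin branch genes, 3, 2 and 3 were lower at days 2, 3 and 4 and 2, 1, 2 and 3 higher over the 4 days. At day 3 the secreted enhancer Rspo3 stood at 1.02 ± 0.483 against 11.0 ± 4.32 CPM (-3.42) and its receptor gene Lgr5 at 0.641 against 10.7 CPM (-4.04), whereas Lgr4 was higher on all 4 days (0.30, 0.40, 0.64 and 1.04). Of 14 tested inhibitor genes, 2, 6, 6 and 7 were lower, and 1, 2 and 2 higher at days 2, 3 and 4. At day 4 Dkk1, which blocks Lrp5 and Lrp6, stood at 6.71 ± 4.12 against 132 ± 17.1 CPM (-4.30), and Sfrp5, which binds Wnt proteins, at 0.328 ± 0.209 against 68.1 ± 29.5 CPM (-7.66).

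Of 15 genes known as canonical Wnt targets, 7, 6, 9 and 7 were lower in the knock-out at days 0, 2, 3 and 4, and 2 and 4 were higher at days 2 and 4. The shares of all genes were 10.5%, 15.7%, 20.5% and 27.6% lower and 10.6%, 16.2%, 20.8% and 26.3% higher. The median log2 fold change of the targets was -0.50, -0.26, -1.61 and -0.97. Axin2, a target and inhibitor of the pathway, stood at 16.2 ± 0.895 against 42.5 ± 10.6 CPM at day 0 (-1.39) and 20.9 ± 1.20 against 98.1 ± 7.32 CPM at day 3 (-2.23), with values of 0.01 at day 2 and -0.44 at day 4. Sp5 stood at 0.411 ± 0.176 against 65.0 ± 28.0 CPM at day 3 (-7.28). Of 18 intracellular components, 5, 4, 7 and 5 were higher, the last near the share of all genes, among them Apc on all 4 days (0.44, 0.33, 0.30 and 0.40), and 1, 4 and 4 were lower at days 2, 3 and 4, while Ctnnb1, which encodes β-catenin, was called at day 4 alone (-0.22). Of 13 tested primitive streak genes, 9, 7, 11 and 11 were lower, and 2 and 1 higher at days 2 and 3, with medians of -2.47, -2.14, -4.74 and -1.65. T, the Brachyury gene of the streak, stood at 2.75 ± 0.776 against 222 ± 73.7 CPM at day 3 (-6.33).

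In the step from day 3 to day 4, 10 of the 15 canonical targets and 10 of the 13 streak genes were called with a knock-out minus wild-type difference above 0, as were 4 of the 9 ligands, beside 12.6% of all genes. T, Dkk1, Lgr5 and some others stand on more than 1 of these lists. Over the same days other cell type markers differed between genotypes: at day 4 summed definitive endoderm markers were 4004 to 4164 CPM in the wild-type and 1444 to 1772 in the knock-out, pluripotency markers 199 to 315 and 711 to 755, and neuroectoderm markers 74.5 to 148 and 389 to 406. The part of the mix of cells in the ligand values was not tested.

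For each ligand, the genes with the most similar pattern over the 8 group means of log2 CPM were listed as a description, by Pearson's r over 10103 or 10104 candidates. The groups share genotype and day, so many genes can reach a high r. Wnt3 was nearest to Slc1a4 (0.986) and Fgf8 (0.979), Wnt8a to T (0.977), Alox15 (0.969) and Sp8 (0.963). Wnt11 was nearest to Stard13 (0.992) and Rreb1 (0.988), Wnt5a to Sorcs2 (0.990) and Gnb4 (0.985), and Wnt5b to Rtl8b (0.986) and Slc4a4 (0.968). The lowest of these first values was that of Wnt4, with Lrrc27 at 0.908. For Wnt3a the nearest were Coq6 (0.983) and Cdx1 (0.980), and for Wnt6 and Wnt7b Ahnak2 (0.995) and Hikeshi (0.991), both ligands at low levels.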

How the data were processed

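Polyadenylated RNA of 24 libraries was sequenced, 3 in each of 8 groups of genotype and day; groups and replicate numbers came from the sample labels. The authors deposited whole-number read counts per gene, not normalised, with 55401 entries. Of these, 55141 were found in GENCODE M21, which gave exon lengths and coordinates on GRCm38, and 29207 had counts; 1830 entries without a name, T among them, were named by their identifier. The submitters' processing notes name Trimmomatic, HISAT2 and the build GRCm38.p6. For the versions, the counter, strand use and reads with several matches, nothing is given in the sources used here.

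CPM used TMM-scaled library sizes. Differences were tested with edgeR 4.0.16 (R 4.3.3), by its quasi-likelihood test, robust, in 1 model over 8 groups after its filter on low counts (17144 genes; the common biological coefficient of variation was 0.0906). The 13 comparisons were genotype at 4 days, 3 steps in each genotype, and 3 interactions. Adjustment was by Benjamini-Hochberg over all tested genes of a comparison, and 0.05 was the threshold. Ratios with 1 to 3 counts in a group have exact 95% intervals, which cover counting error only. The test was tried on simulated data. Members and gene lists were chosen with earlier results of these data known. All 9 ligands are named, list genes are examples, and the most similar genes are the 3 highest correlations per ligand, of which the first 1 to 3 are given; the chromosomal neighbours were named after their values were seen. Alternatives were DESeq2 1.42.0 (size factors, Wald test), no filter, only the groups compared, no day 0, the replicate number as a block and each library left out.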

Additional observations from a re-analysis of the deposited data

Results flagged for a closer look

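Each of these 6 results is a step between days whose size differed between the knock-out and the wild-type by a test of the difference itself, edgeR's quasi-likelihood interaction with Benjamini-Hochberg adjustment over all genes. From day 2 to day 3, Wnt5b rose less in the knock-out (-0.96 on the log2 scale, adjusted p = 0.0053). It was the only ligand called there, a count near the 10.9% share of all genes. From day 3 to day 4, Wnt8a fell in the wild-type and rose in the knock-out (5.34, adjusted p = 3.5e-07), and so did Wnt5b (1.83, adjusted p = 6.42e-07) and Wnt3 (1.13, adjusted p = 0.00058). In that step Wnt11 rose in the knock-out and was not called in the wild-type (2.24, adjusted p = 5.77e-05), and Wnt5a rose in the wild-type and was not called in the knock-out (-3.26, adjusted p = 0.000215). The knock-out steps of Wnt3 and Wnt5b lost their call when some libraries were left out; each of the 6 differences was called under all the alternatives that gave it a value.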

How the results depend on the processing

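The knock-out and wild-type numbers are means of 3 libraries, and depth limits Wnt3a, Wnt6 and Wnt7b, whose groups hold few counts from day 2 on. Few counts also lie behind Wnt11 at day 2 (19 in the wild-type group and 5 in the knock-out group). In the knock-out, Wnt3 held 10 counts at day 2, and Wnt8a held 22 at day 0 and 23 at day 2. Of 117 values of a ligand in a comparison, 56 were called, 47 of them under every alternative; 9 lost their call and 16 gained one in at least 1 alternative, and 0 reversed. Only Wnt8a in the knock-out step from day 2 to day 3 was lost with the replicate number as a block (adjusted p = 0.0516, 5 ligands called in place of 6), and all other ligand calls stayed; deviations of same-numbered libraries correlated at -0.15 to 0.042 between genotypes, and between successive days at -0.0907 to 0.165 in the wild-type and 0.0243 to 0.0985 in the knock-out. The numbers were not treated as pairs, and the tests of steps and interactions took all libraries as independent. Yet 8 of 9 knock-out and 5 of 9 wild-type libraries correlated best with their own number on the next day. This is a hint from the data of a link between same-numbered libraries within a genotype, and its effect on the p-values of the steps was not tested. The block gave each number 1 effect shared by both genotypes, so it cannot decide on a pairing within 1 genotype. With the replicate block 3663 genes were called between genotypes at day 0, against 3611. A fit of only the groups compared called 1587 genes there, and 3698 in the knock-out from day 3 to day 4, against 1986; the cause was not tested. DESeq2's Wald test called 3 ligands in the interaction from day 2 to day 3, adding Wnt3 (adjusted p = 0.019) and Wnt11 (0.0374) to Wnt5b. Without a filter on low counts, the knock-out rises of Wnt8a to day 3 and of Wnt3 to day 4 were lost, and without day 0 that of Wnt8a.

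Leaving out 1 library at a time gave 3 to 5 ligands at day 4 between genotypes (Wnt8a lower too without wild-type replicate 1, Wnt4 and Wnt7b higher without wild-type replicate 3), 3 to 5 in the knock-out step from day 2 to day 3, 2 to 4 in that from day 3 to day 4 (1062 to 1504 of all genes) and 1 to 2 in the interaction from day 2 to day 3. The all-gene count of the interaction from day 0 to day 2 ran from 731 to 1645 against 1259, and its share of higher calls rose from 58.1% to 69.3% without wild-type day 0 replicate 1 and 69.9% without knock-out day 2 replicate 1. Without division by exon length the log2 class ratio was -0.33, -0.36, 2.02 and 0.69 in the wild-type at days 0, 2, 3 and 4, and -3.86, -4.05 and 1.21 in the knock-out at days 0, 2 and 4. The shift follows from exon lengths, which run among the summed ligands from 1746 bases for Wnt8a to 4137 for Wnt11 and 7823 for Wnt5a. With exon length not under another gene, an alternative chosen after seeing the data, the class ratio kept its sign (0.82 in the wild-type at day 0).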

Other observations

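The nearest tested gene on each side of each of the 9 ligands was looked at. Some of these neighbours were lower in the knock-out, and others were higher or not called. Those detailed here were chosen after their values were seen. Nme5, 14361 bases from Wnt8a, was lower on all 4 days (-1.71, -3.58, -4.00 and -3.41 on the log2 scale, by edgeR's quasi-likelihood test), with 0.834 against 8.92 CPM at day 4, when Wnt8a itself was not called. Fam13b, 35482 bases away on the other side of Wnt8a, was lower at day 3 only (-0.39). Wnt9b, another Wnt ligand gene 24329 bases from Wnt3, was lower at days 0, 3 and 4 (-2.16, -2.02 and -1.10), whereas Nsf, 3825 bases from Wnt3, was higher at days 0 and 2 (0.16 and 0.22). At day 0 Wnt9b held 5 counts in the knock-out group and 26 in the wild-type group.

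Cacna2d3, a calcium channel subunit gene 377495 bases from Wnt5a, was lower at day 4 as Wnt5a was (-4.07, 0.390 against 6.70 CPM), whereas Erc2, 26213 bases away on the other side, was higher at days 3 and 4 (0.40 and 0.34). Wnt9a, 16176 bases from Wnt3a, was higher at days 2 and 3 (0.70 and 0.72), and Arf1 on its other side at day 2 (0.13). Atxn10 next to Wnt7b was higher at days 0, 2 and 3 (0.37, 0.37 and 0.17), and Ppara on its other side lower at day 4 (-1.99). Thap12 next to Wnt11 was higher at day 0 (0.28) and lower at day 3 (-0.33). The neighbours of Wnt5b, Wnt4 and Wnt6 were called on no day. Reads of neighbours could not be separated by strand from the table, and none of these pairs was tested against other neighbouring genes.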
